A study of Caenorhabditis elegans with 6 samples.

Results

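The mitochondrial genome of Caenorhabditis elegans is carried in the count table as 36 genes on MtDNA, chosen as every row with that chromosome label, out of 46748 genes in all. They are 12 mRNA genes, 2 rRNA genes and 22 tRNA genes, and all 36 lie on the plus strand between positions 1 and 13327 of build WBcel235. Wild-type worms (strain N2) were compared with worms of strain VDL786, which carry crh-1(syb385) and are described as a knockout of the circular RNA of crh-1, the worm CREB gene. Each genotype had 3 libraries of total RNA from whole worms collected on day 1 of adulthood. Both groups grew at 20 °C on OP50 bacteria, and both were moved at the L4 stage to plates with 25 µM FUdR, a blocker of DNA synthesis that stops progeny. The knockout is represented by 1 allele in 1 strain.

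Mitochondrial DNA encodes a small set of membrane subunits of the respiratory chain, together with the rRNAs and tRNAs needed to translate them inside the organelle. Everything else, from the RNA polymerase to the ribosomal proteins, is imported from nuclear genes. Mitochondrial genes are read as long joint transcripts that are then cut into single RNAs, in many animals at the tRNAs between them, and the adult germline is a large store of mitochondrial DNA in worms.

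The libraries held 38974777 to 47444165 counts in genes, of which 14188050 to 35075781 were in protein-coding genes, the lowest being knockout replicate 2. Marker genes of body muscle, intestine, hypodermis, neurons, germline and sperm were all detected. Counts of crh-1 pool linear and circular RNA and do not check the genotype. The level of crh-1 was 20.6, 18.7 and 23.9 CPM (counts per 1000000 of the TMM-scaled library size) in wild-type replicates 1 to 3, against 17.9, 17.6 and 23.9 CPM in the knockout libraries of the same numbers (edgeR adjusted p = 0.996). The replicate numbers are shared by the genotypes and were taken as pairs from the correlation of their deviations over all genes, although the labels do not say what a number shares and, over the mitochondrial genes alone, pair 1 correlated at -0.39. The design text calls the replicates independent.

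Mitochondrial genes together took 6.36%, 5.66% and 2.49% of all counts in wild-type replicates 1 to 3, against 7.94%, 12.4% and 3.67% in the knockout libraries of the same numbers. Most of this was rRNA, which made up 80.1% to 84.9% of the mitochondrial counts across the 6 libraries, although the library kit is meant to remove rRNA. The genotypes overlapped, and the number 3 replicates were the lowest of each genotype.

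**Figure D1:**
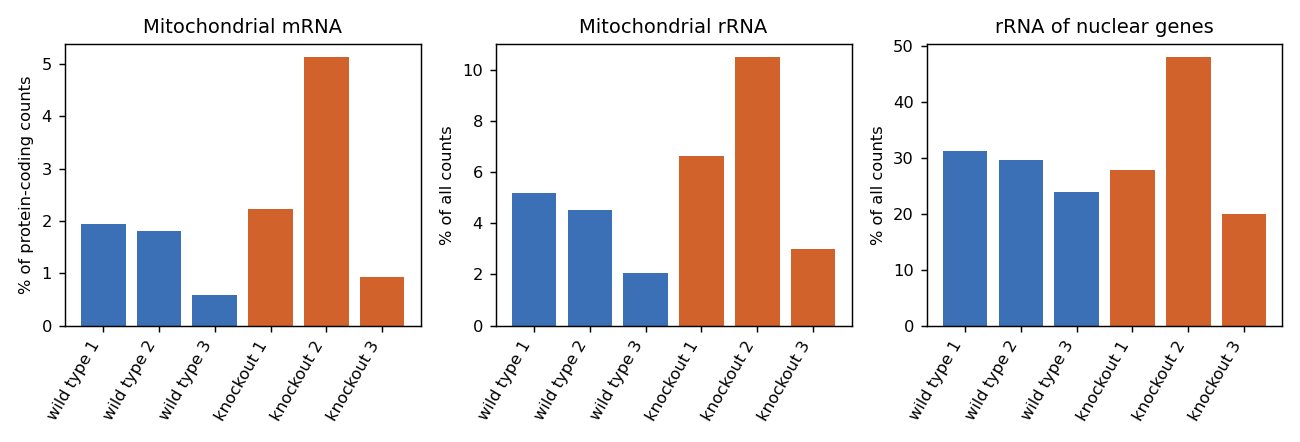
Bars give, for each library, mitochondrial mRNA as a percent of protein-coding counts, mitochondrial rRNA as a percent of all counts and rRNA of nuclear genes as a percent of all counts (blue, wild type; orange, knockout; 1 bar per library, no error bars). Knockout replicate 2 is the highest bar in each panel, at 5.13%, 10.5% and 48%.

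Mitochondrial mRNA was 1.94%, 1.81% and 0.588% of protein-coding counts in wild type, against 2.22%, 5.13% and 0.927% in knockout. The means were 1.45% ± 0.747 and 2.76% ± 2.15 (SD, n = 3 each), a difference of 1.31 percentage points (two-sided exact permutation p = 0.4, where 3 against 3 can reach no less than 0.1). The knockout library was the higher one in 3 of 3 replicate pairs (exact sign-flip p over the pairs = 0.25, the smallest that 3 pairs allow). Without knockout replicate 2 the difference was 0.128 percentage points. That library also had the largest share of rRNA from nuclear genes, 48% against 19.9% to 31.2% in the others, and what this contributes was not tested.

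The rRNA genes behaved likewise. Mitochondrial rRNA took 5.2%, 4.53% and 2.07% of all counts in wild type, against 6.63%, 10.5% and 2.98% in knockout, means of 3.93% ± 1.65 and 6.72% ± 3.78 (SD, n = 3 each; two-sided exact permutation p = 0.4). The exact sign-flip p over the replicate pairs was 0.25. Without knockout replicate 2 the difference of 2.78 percentage points was 0.873. Counting error was below both spreads, with Wilson 95% half-widths of at most 0.0115 percentage points for these shares.

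Markers of several cell types also varied between these libraries. The summed level of the germline and oocyte markers glh-1, pgl-1, rme-2 and puf-5 was 949, 1456 and 2195 CPM in wild type, against 779, 693 and 2228 CPM in knockout, so it was highest in the number 3 replicates, where mitochondrial RNA was lowest. The body muscle markers myo-3, unc-54 and unc-15 summed to 348, 696 and 422 CPM in wild type, against 452, 1189 and 283 CPM in knockout, with the maximum in knockout replicate 2. Hypodermis markers col-19, rol-6 and dpy-7 summed to 1475, 1149 and 1177 CPM against 2043, 2096 and 825 CPM. Nearly all of this sum was col-19, which had its maximum in knockout replicate 2 too, at 2095 CPM. The other hypodermis markers did not: dpy-7 was highest in knockout replicate 3, at 1.88 CPM, and rol-6 in knockout replicate 1, at 1.48 CPM. Sperm markers summed to 14.5, 14.3 and 8.37 CPM against 15.6, 6.85 and 2.89 CPM. Sums over the libraries ran from 6703 to 10601 CPM for the intestine markers ges-1, vit-2, vit-6 and elt-2. Nearly all of that was vit-2 and vit-6. The scarcer ges-1 ran from 18 to 48.3 CPM and elt-2 from 6.46 to 14.7 CPM, both highest in knockout replicate 1. The neuron markers rab-3, unc-119 and snb-1 summed to 40.3 to 57.6 CPM, mostly snb-1. None of these markers was at 0, and their part in the mitochondrial values was not tested. In RNA of whole worms, fewer cells of a type and less RNA per cell cannot be told apart.

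Of the 36 genes, 14 entered the test across all genes, namely every mRNA and both rRNAs, and the 22 tRNA genes were removed by the filter on low counts. None of the 14 was called: edgeR called 0 of 14354 genes (0%), and 0 of the 14 had an unadjusted p under 0.05, against 141 genes, or 0.982%, over all. DESeq2 also called 0 of the 14, against 0.186% of all genes with a DESeq2 adjusted p. Fitted fold changes were positive for 13 of the 14, against 52.3% of all genes tested. The 12 mRNA genes had a median log2 fold change of 0.90 (knockout over wild type) and all genes tested one of 0.02. Mitochondrial RNAs share their transcripts and their libraries, so these 14 values are not independent. In none of the 14 did every knockout library lie above every wild-type library in CPM, as held for 1.72% of all genes tested, or below it, as held for 1.56%.

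**Figure D2:**
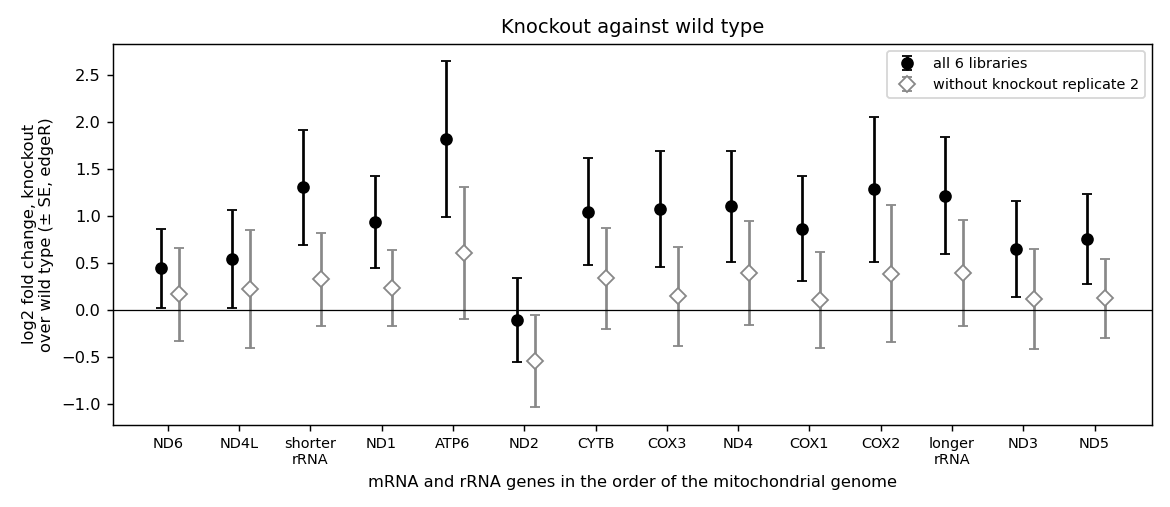
Points give the log2 fold change of each mRNA and rRNA gene, knockout over wild type, with edgeR standard errors as bars; genes stand in the order of the mitochondrial genome. Filled points use all 6 libraries and open points leave out knockout replicate 2; ATP6 is the highest filled point at 1.82 and ND2 the lowest at -0.10.

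Without knockout replicate 2 the median of the 12 mRNA genes was 0.20, with 11 of 12 still positive, and that of all genes 0.03. Pair by pair, 9 of the 14 genes were higher in knockout in each of the 3 replicate pairs, against 11.2% of all genes tested. They were both rRNAs, ND1, ATP6, CYTB, COX3, ND4, COX1 and COX2. The summed mRNA level was 1.19-fold, 3-fold and 1.56-fold that of wild type in pairs 1, 2 and 3, and the summed rRNA level 1.34-fold, 4.21-fold and 1.36-fold.

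Complex V has a single mitochondrial subunit gene here, ATP6 (WBGene00010960; MtDNA 2634 to 3235, plus strand), which encodes part of the proton channel of ATP synthase. Its level was 330, 236 and 48.2 CPM in wild-type replicates 1 to 3, against 421, 1549 and 200 CPM in the knockout libraries of the same numbers. Wild-type replicate 3 was the lowest and knockout replicate 2 the highest of the 6, and the genotypes overlapped. The log2 fold change of 1.82 (SE 0.83, with an edgeR adjusted p of 0.996) was the largest of the 14, with a 95% interval of the fold from 0.955 to 13.1. Leaving out knockout replicate 2 gave 0.61, and leaving out wild-type replicate 3 gave 1.39. Within pairs ATP6 was 1.28-fold, 6.56-fold and 4.15-fold higher in knockout.

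Cytochrome c oxidase, complex IV, takes its catalytic core from COX1, COX2 and COX3. COX1 (WBGene00010964; MtDNA 7827 to 9428), which holds the haem groups where oxygen is reduced, stood at 4669, 4753 and 1845 CPM in wild type, against 5270, 12523 and 2730 CPM in knockout. Its fitted log2 fold change came to 0.87 (SE 0.56; edgeR adjusted p = 0.996), and 0.11 without knockout replicate 2. Both genotypes were spread widely in COX1, from 1845 to 4753 CPM in wild type and from 2730 to 12523 CPM in knockout.

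COX2 (WBGene00010965; MtDNA 9649 to 10348), which takes electrons from cytochrome c, had 879, 755 and 132 CPM in wild type, against 1102, 2782 and 428 CPM in knockout. Its fitted log2 fold change came to 1.29 (SE 0.77; edgeR adjusted p = 0.996), 0.39 when knockout replicate 2 was left out and 0.85 when wild-type replicate 3 was. COX2 was the one gene whose call depended on the test. With the replicate number as a block, DESeq2 called it (log2 fold change 1.32, SE 0.30, DESeq2 adjusted p = 0.0131; 0.17% of genes called), while edgeR with the same block did not (1.31, SE 0.32; edgeR adjusted p = 0.655; 0.00697% of genes called). The DESeq2 fit with the block was chosen after the data had been seen. Pair ratios for COX2 were 1.25, 3.68 and 3.23, knockout over wild type.

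COX3 (WBGene00010962; MtDNA 5678 to 6449), the remaining core subunit, had 1147, 1212 and 414 CPM in wild type, against 1343, 3847 and 691 CPM in knockout. Its fitted log2 fold change came to 1.08 (SE 0.62; edgeR adjusted p = 0.996) and was 0.15 without knockout replicate 2. All complex IV genes thus had their maximum in knockout replicate 2 and their minimum in wild-type replicate 3.

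CYTB (WBGene00000829; MtDNA 4504 to 5621), the cytochrome b of complex III, had the same highest and lowest libraries. Its level was 1756, 1616 and 581 CPM in wild type, against 2222, 4882 and 1079 CPM in knockout (log2 fold change 1.05, SE 0.57; edgeR adjusted p = 0.996). This was 0.34 when knockout replicate 2 was left out.

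Complex I, the NADH dehydrogenase, accounts for 7 of the mRNA genes, and these fell into an abundant and a scarce group. ND1 (WBGene00010959; MtDNA 1763 to 2635), part of the membrane arm near the quinone site, had 480, 458 and 301 CPM in wild type, against 626, 1411 and 333 CPM in knockout, for a log2 fold change of 0.94 (SE 0.49, with an edgeR adjusted p of 0.996). ND4 (WBGene00010963; MtDNA 6506 to 7808), one of the proton-pumping subunits, had 429, 311 and 132 CPM against 521, 1124 and 237 CPM, for a log2 fold change of 1.11 (SE 0.59, with an edgeR adjusted p of 0.996). ND5 (WBGene00010967; MtDNA 11691 to 13272), the proton-pumping subunit at the tip of the arm, had 697, 594 and 444 CPM against 847, 1701 and 391 CPM. In ND5 the lowest library of all was knockout replicate 3, and the log2 fold change was 0.76 (SE 0.48; edgeR adjusted p = 0.996). Leaving out knockout replicate 2 gave 0.24, 0.40 and 0.13 for ND1, ND4 and ND5.

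The scarce complex I genes were ND2, ND3, ND4L and ND6, all membrane-arm subunits, which together gave 0.149% to 0.427% of the mitochondrial mRNA counts in each library. ND2 (WBGene00010961; MtDNA 3389 to 4269) had 216, 176 and 194 raw counts in wild type, against 191, 156 and 93 in knockout. Its levels of 4.77, 3.69 and 4.52 CPM in wild type, against 4.05, 6.4 and 1.75 CPM in knockout, overlapped, and it was the one mRNA with a negative log2 fold change, -0.10 (SE 0.45; edgeR adjusted p = 0.996). The value was 0.07 with upper-quartile scaling and 0.08 without wild-type replicate 1. Leaving out knockout replicate 2 gave -0.54, and leaving out knockout replicate 3 gave 0.27.

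ND4L (WBGene00010958; MtDNA 549 to 783), the shortest mRNA gene, had only 51, 32 and 24 raw counts in wild type, against 60, 41 and 29 in knockout. ND6 (WBGene00010957; MtDNA 113 to 549) had 416, 376 and 251 against 572, 355 and 248 raw counts. ND3 (WBGene00010966; MtDNA 11356 to 11691) had 528, 374 and 248 against 617, 533 and 256 raw counts. In pair 3 all of these genes were lower in knockout on the CPM scale, with ratios of 0.973 for ND4L, 0.796 for ND6, 0.831 for ND3 and 0.386 for ND2. Their log2 fold changes were 0.55 (SE 0.52) for ND4L, 0.45 (SE 0.42) for ND6 and 0.65 (SE 0.51) for ND3, each with an edgeR adjusted p of 0.996. Leaving out knockout replicate 2 gave 0.23, 0.17 and 0.12 in the same order.

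The annotation does not say which ribosomal subunit each rRNA gene belongs to, so they are named by length. The shorter rRNA (WBGene00014454; MtDNA 898 to 1593, 696 bases) had 28924, 24962 and 12654 CPM in wild type, against 37313, 110296 and 17610 CPM in knockout. The longer rRNA (WBGene00014472; MtDNA 10403 to 11354, 952 bases) had 17743, 15040 and 6905 CPM in wild type, against 25211, 58122 and 8952 CPM in knockout. Their log2 fold changes were 1.31 (SE 0.61) and 1.22 (SE 0.62), each with an edgeR adjusted p of 0.996, and 0.33 and 0.40 without knockout replicate 2. As raw counts, the shorter rRNA was 1.63, 1.66 and 1.83 times the longer one in wild type and 1.48, 1.9 and 1.97 times in knockout.

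The ratio of rRNA to mRNA counts within the mitochondrion needs no scaling to nuclear genes. It was 4.48, 4.02 and 5 in wild type and 5.05, 5.64 and 4.35 in knockout, which is 2.16 ± 0.157 and 2.32 ± 0.187 on the log2 scale (SD, n = 3 each; two-sided exact permutation p = 0.4). The groups overlapped, and 2 of 3 pairs were higher in knockout (exact sign-flip p over the pairs = 0.75). The kit removes rRNA, so this is a ratio of what remained in the libraries.

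Almost no counts fell in the tRNA genes, whose products carry amino acids to the mitochondrial ribosome. They are 52 to 62 bases long, and 18 of the 22 were at 0 in every library. The 22 genes together had 31 counts, out of 16084943 mitochondrial counts over the 6 libraries. A count of 0 in a library allows up to 3 counts, for counting error only. The highest mean was in WBGene00014453 (MtDNA 842 to 896), just ahead of the shorter rRNA, with 3, 0 and 0 counts in wild type, against 5, 4 and 2 in knockout. WBGene00014466 (MtDNA 6450 to 6504), between COX3 and ND4, had 2, 1 and 0 against 2, 4 and 2 counts and is named because it came next, after the values were seen. Total tRNA counts were 5, 2 and 0 in wild type and 10, 10 and 4 in knockout, too few for any comparison of levels. Fragments that touch a neighbouring gene were not counted, and tRNAs this short lie within reach of their neighbours, commonly 1 base away. What this contributes to the low counts was not tested.

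Levels between genes were compared per length, as CPM per kb. COX1 was the highest mRNA gene on this scale in every library, at 2915, 2967 and 1152 CPM per kb in wild type, against 3289, 7817 and 1704 CPM per kb in knockout. Among all protein-coding genes of the worm ranked by counts per kb, COX1 held places 3, 3 and 90 in wild type and 4, 1 and 26 in knockout. Both number 3 replicates thus had COX1 further down the list. ND4L was lowest on average, at 2.32 to 7.16 CPM per kb, so that COX1 exceeded ND4L 484-fold to 1092-fold within single libraries.

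**Figure D3:**
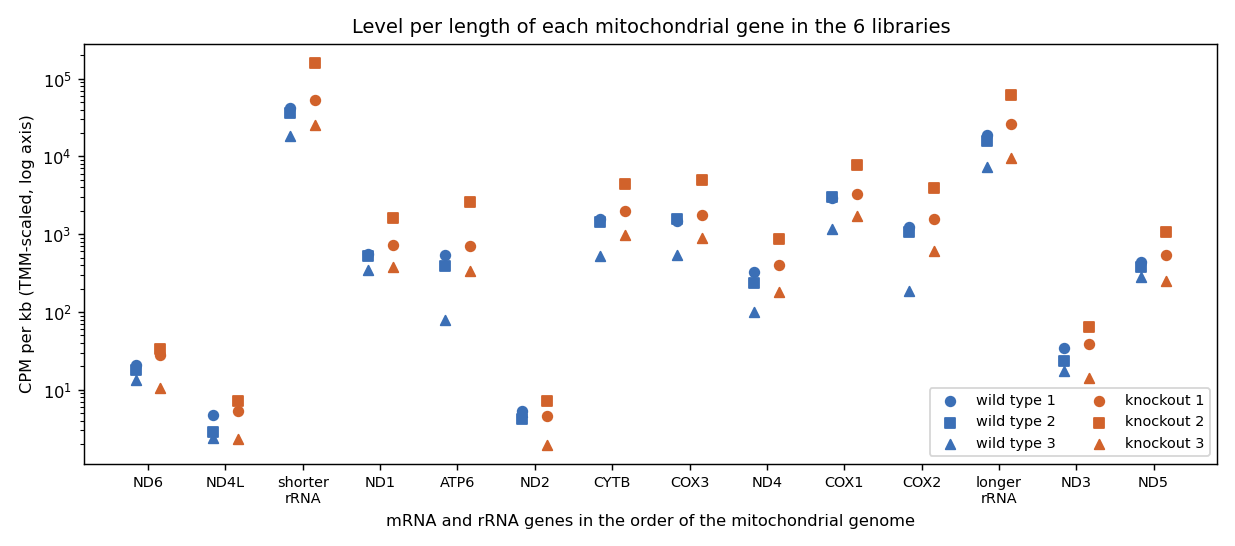
Each point is the level per length of a gene in a library, as TMM-scaled CPM per kb on a log axis, with the mRNA and rRNA genes in the order of the mitochondrial genome (blue, wild type; orange, knockout; circle, square and triangle for replicates 1, 2 and 3). The rRNA genes lie at 7253 CPM per kb or more, 8 mRNA genes between 80.1 and 7817, and ND6, ND4L, ND2 and ND3 at 65.1 or less.

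By the geometric mean over the 6 libraries the mRNA genes ran, from the highest down, COX1, CYTB, COX3, COX2, ND1, ATP6, ND5, ND4, ND3, ND6, ND2 and ND4L. Neighbours in this order were compared within libraries by an exact sign-flip test over the 6 libraries, whose smallest possible p is 0.03125. The order came from these same 6 libraries, so these p-values are not separate support for it. Of 11 neighbouring pairs, 6 kept their order in all 6 libraries, each with an exact p of 0.0312, adjusted over the pairs to 0.0572. These were COX1 over CYTB (1.88-fold on average), COX3 over COX2 (1.47-fold), ND5 over ND4 (1.54-fold), ND4 over ND3 (9.98-fold), ND3 over ND6 (1.47-fold) and ND6 over ND2 (4.32-fold). CYTB and COX3 did not differ beyond their spread, with a mean ratio of 1, a range of 0.876 to 1.14 and an exact p of 0.969. COX2, ND1, ATP6 and ND5 changed places between libraries, as did ND2 and ND4L (0.849-fold to 2.16-fold).

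The drop from ND4 to ND3 separates the abundant from the scarce mRNA genes, and genes of like length or position fell on either side. ND1 and ND2 have nearly the same length, 873 and 881 bases, yet ND1 was 67.2-fold to 223-fold higher per kb. ND3 directly adjoins ND5, sharing 1 base with it, and ND5 was 12.7-fold to 17.3-fold higher per kb. Within the scarce group, ND6 likewise shares 1 base with ND4L and was 4.39-fold to 6.32-fold higher per kb. The shared stretch is longest in ND2, where 29 bases also belong to tRNA genes on either side. Since fragments touching more than 1 gene were left out of the counts, adjoining and overlapping genes lost some of theirs. Fragments that map to several places were left out as well. How much each gene lost in these ways was not tested.

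The make-up of the mitochondrial mRNA pool was then compared, as the share of each gene in the summed counts of the 12 mRNA genes. Complex IV genes held 64.3%, 67.5% and 61.1% of the pool in wild type and 62.3%, 64.1% and 63.1% in knockout (two-sided exact permutation p = 0.7). Complex I genes held 15.7%, 13.9% and 22.8% against 16.3%, 14.3% and 15.9% (two-sided exact permutation p = 0.9). CYTB held 16% ± 1.03 in wild type and 17.3% ± 0.86 in knockout (SD, n = 3 each; two-sided exact permutation p = 0.2). By complex, the division of the pool thus overlapped between genotypes for I, III and IV.

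**Figure D4:**
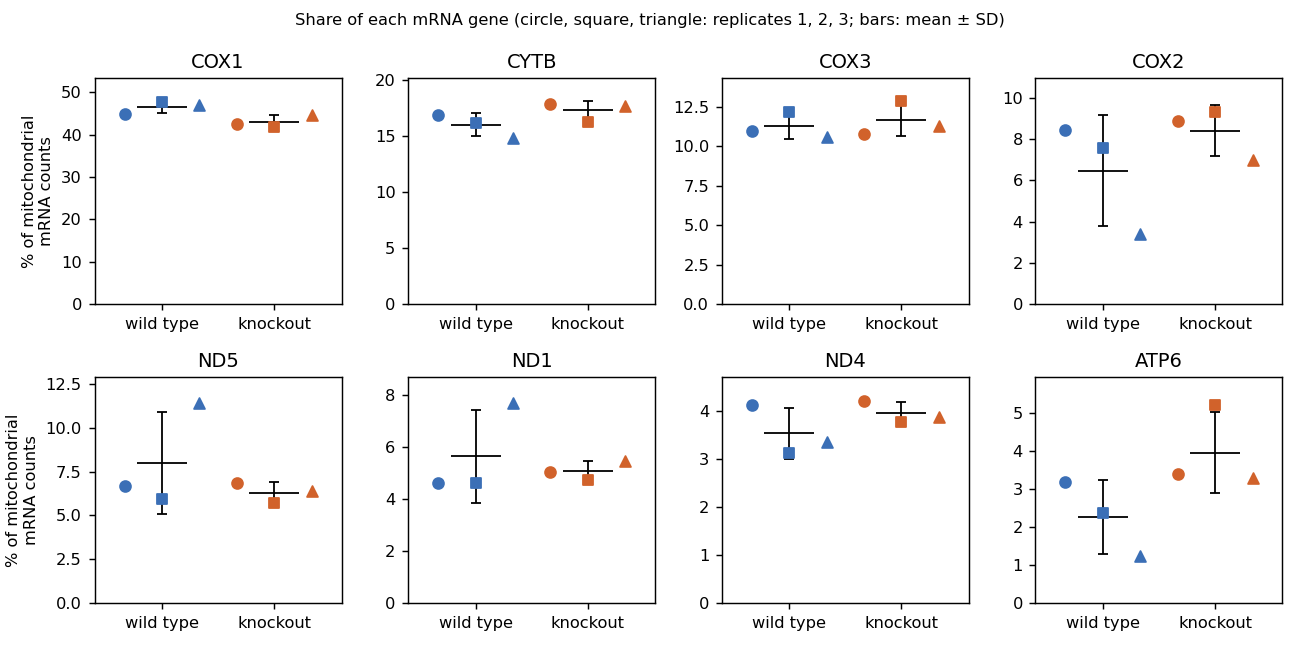
Panels give the share of 8 mRNA genes in the mitochondrial mRNA counts, in percent, for each library (blue, wild type; orange, knockout; symbols mark replicates; bars are mean ± SD). In wild-type replicate 3 the shares of ND5 and ND1, 11.4% and 7.69%, are the highest and those of COX2 and ATP6, 3.38% and 1.23%, the lowest of the 6 libraries.

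Shares of 3 of the 12 genes did not overlap between genotypes (25%; these shares exist for the 12 genes alone, so there is no wider background). The shares of a library sum to a fixed total, so a larger share of some genes makes those of others smaller. The genes are therefore not independent on this scale. ATP6 held 3.17%, 2.37% and 1.23% of the pool in wild type and 3.4%, 5.19% and 3.28% in knockout, a difference of 1.7 percentage points. COX1 held 44.8%, 47.7% and 47.1% in wild type, against 42.6%, 41.9% and 44.7% in knockout, a difference of -3.49 percentage points, with the closest libraries at 44.8% and 44.7%. ND2 held 0.0458%, 0.0371% and 0.115% in wild type, against 0.0327%, 0.0214% and 0.0286% in knockout. For each of these genes the two-sided exact permutation p was 0.1, the smallest that 3 against 3 allows, and 0.4 after adjustment over the 12 genes. Within single libraries the Wilson 95% half-width of a share was at most 0.239 percentage points, wider than the gap between the closest COX1 libraries.

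Without knockout replicate 2 the difference in ATP6 share was 1.08 percentage points, and without wild-type replicate 3 it was 1.18. The COX1 difference was -2.92 and -3.21 percentage points in the same comparisons, and the ND2 difference of -0.0386 was -0.0139 without wild-type replicate 3. In each of the 3 replicate pairs ATP6 had the larger share in knockout and COX1 the smaller one (exact sign-flip p over the pairs = 0.25 for each). The smaller share of COX1 is relative to the pool: in CPM, COX1 was 1.13-fold, 2.64-fold and 1.48-fold higher in knockout in pairs 1, 2 and 3. COX2 also had a larger share in knockout in 3 of 3 pairs, with 8.44%, 7.59% and 3.38% in wild type, against 8.9%, 9.32% and 7.01% in knockout, but its groups overlapped and the difference of 1.94 percentage points was 0.398 without wild-type replicate 3.

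One library stood apart in the make-up of its pool. The share of the pool that would have to move to turn one library into another was 8.95 to 14.1 percentage points between wild-type replicate 3 and each other library. Between any 2 of the other libraries it was 2.1 to 6.52 percentage points. The smallest value, 2.1, was between wild-type replicate 1 and knockout replicate 3, which differ in genotype and number. Relative to its neighbour ND1, ATP6 stood at 0.232 per kb in wild-type replicate 3, against 0.748 to 1.59 in the other libraries. This library also had the fewest mitochondrial mRNA counts, 167990, against 325030 to 728143 in the others.

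The nuclear genes that keep and express the mitochondrial genome were followed as a list of 34, of which 31 had a row under those names and 30 were tested. The list was compiled from textbook roles. None was called by edgeR (0% of all genes) or DESeq2 (0.186% of all genes), and none had an unadjusted p under 0.05 (0.982% of all genes). Fitted log2 fold changes were negative for 25 of the 30 and positive for 5, with a median of -0.17 against 0.02 for all genes tested. Without knockout replicate 2 the median was -0.02, with 14 of 30 positive, and without wild-type replicate 3 it was 0.04.

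**Figure D5:**
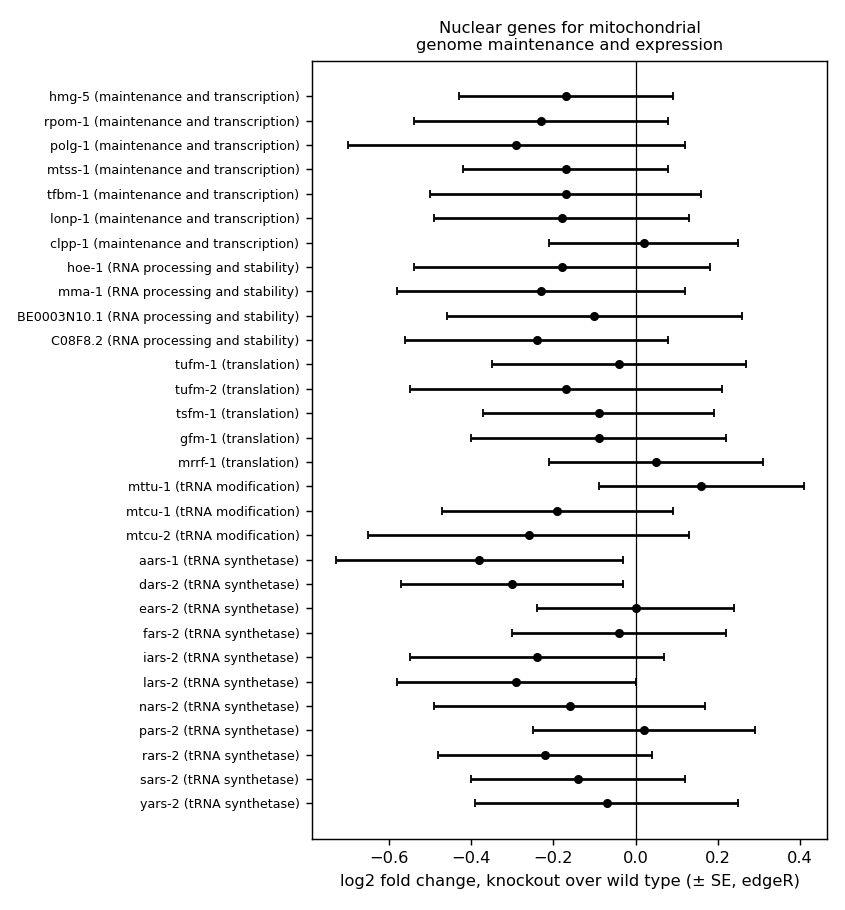
Points give the log2 fold change, knockout over wild type, of the 30 tested nuclear genes that maintain or express the mitochondrial genome, with edgeR standard errors as bars and each gene's role in brackets. The points span -0.38 to 0.16, and 25 of 30 lie below 0.

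By role, 6 of 7 genes of genome maintenance and transcription had negative fold changes, as did 4 of 4 of RNA processing, 4 of 5 of translation, 2 of 3 of tRNA modification and 9 of 11 tRNA synthetases. These counts did not hold when knockout replicate 2 was left out: 5 of 5 translation genes and 5 of 11 synthetases then had positive values, as did 2 of 7, 1 of 4 and 1 of 3 in the other roles. hmg-5 (chromosome IV, 7644890 to 7646219), the worm counterpart of TFAM, which packages mitochondrial DNA, stood at 87.3, 79.5 and 68.6 CPM in wild type, against 81.4, 58.2 and 69 CPM in knockout. Its fitted log2 fold change came to -0.17 (SE 0.26; edgeR adjusted p = 0.996). The groups overlapped, and the lowest library was knockout replicate 2, the highest for mitochondrial RNA. Within wild type it went the other way: hmg-5 was lowest in replicate 3, at 68.6 CPM, where mitochondrial RNA was lowest too.

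rpom-1 (chromosome I, 14552095 to 14565844), the mitochondrial RNA polymerase, had 50.1, 45.1 and 62.4 CPM in wild type, against 36.3, 34.6 and 64 CPM in knockout (log2 fold change -0.23, SE 0.31; edgeR adjusted p = 0.996). polg-1 (chromosome II, 12189877 to 12199959), the DNA polymerase that copies the mitochondrial genome, had 13.9, 18.9 and 29.1 CPM against 12.9, 10.9 and 26.7 CPM (log2 fold change -0.29, SE 0.41; edgeR adjusted p = 0.996). Both genes were highest in the number 3 replicates, where the summed mitochondrial levels were lowest. The summed germline and oocyte markers were highest there too, so this was not particular to these genes. The polg-1 value turned to 0.09 without wild-type replicate 3.

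The smallest unadjusted p-values of the list belonged to tRNA synthetases, enzymes that load amino acids onto tRNAs. dars-2, for aspartate, had 46.1, 37.7 and 43.1 CPM in wild type, against 33.5, 26.3 and 43 CPM in knockout. Its fitted log2 fold change came to -0.30 (SE 0.27; edgeR adjusted p = 0.996). The other three were aars-1 for alanine (log2 fold change -0.38, SE 0.35), lars-2 for leucine (-0.29, SE 0.29) and rars-2 for arginine (-0.22, SE 0.26), each with an edgeR adjusted p of 0.996. Summed over the 30 genes, the level was 1516, 1504 and 1918 CPM in wild type, against 1318, 1172 and 1926 CPM in knockout, again highest in the number 3 replicates.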

How the data were processed

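The authors deposited raw fragment counts for each gene. They counted read pairs over exons with featureCounts 1.5.0 (strand setting 2; Ensembl genes of WBcel235), per the file headers, with no option for fragments that map to several places or touch several genes, which were therefore left out. The tools HISAT2 2.1.0, bcl2fastq 2.19 and DESeq2 1.26.0 are also named in the submitters' processing notes. Per the labels' protocols, a stranded kit with rRNA removal was used on 1 µg of RNA. The gene length in bases is the deposited table's own column, on the scale of exon bases.

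The 36 MtDNA genes matched Ensembl 115 by position and RefSeq, which supplied names, on the same build. The test was that of edgeR 4.0.16 under R 4.3.3 (filterByExpr with minima of 10 per library and 15 in total, TMM, robust quasi-likelihood F test, no covariate), with Benjamini-Hochberg adjustment over 14354 genes and a threshold of 0.05. Standard errors were taken as the log2 fold change divided by the root of F. CPM use TMM-scaled library sizes, and the scaling factor was 0.6259 in knockout replicate 2 and 1.061 to 1.134 in the others. Shares and ratios were compared by exact two-sided permutation tests over libraries. These tests left the replicate pairs out, as did the main edgeR fit. Sign-flip tests of the paired differences were an alternative. DESeq2 1.42.0, limma-voom (limma 3.58.1), other scalings and filters, and leaving out each library were alternatives. The fit was also run on simulated independent counts with the same spread for every gene. These had no replicate pairs and no library like knockout replicate 2, so they do not test the fit under those conditions.

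Deviations from the group means correlated between same-numbered libraries at 0.65, 0.48 and 0.58, and between other pairs at -0.53 to 0.02. The replicate numbers were therefore taken to pair the samples, on the data alone. Deviations cancel within each group, so positive same-numbered values force lower ones elsewhere, and the contrast is not separate support for pairing. Over the mitochondrial genes only, the same-numbered values were -0.39, 0.79 and 0.68, and 0.6 was also reached by wild-type replicate 3 with knockout replicate 1 and by wild-type replicate 1 with knockout replicate 2. Named genes were all mRNA and rRNA members, the tRNA with the highest mean count, crh-1, the 4 genes of the nuclear list with the smallest p, hmg-5, rpom-1 and polg-1. The members and lists were chosen with earlier results of these data known. Wilson half-widths cover counting error only, and the interval of a fold comes from the edgeR standard error, which includes the spread between libraries.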

Additional observations from a re-analysis of the deposited data

How the results depend on the processing

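The number of mitochondrial genes called was 0 under every alternative run except DESeq2 with the replicate block, which called 1, COX2. With the replicate block in edgeR the median log2 fold change of the mRNA genes was 0.71. Standard errors of the tested mitochondrial genes fell, for example from 0.57 to 0.29 for CYTB, and their edgeR adjusted p was 0.655 to 0.823. The block changed no other call among the mitochondrial genes or the nuclear list. Leaving out each library in turn gave medians of 0.20 to 1.29, mRNA shares differing by 0.128 to 2.23 percentage points, rRNA shares by 0.873 to 4.65, and 4 to 5 mRNA genes with shares that did not overlap, where 2 libraries against 3 separate more readily. Library totals without scaling gave a median of 0.44, against -0.21 for all genes.

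Signs turned for ND2 (0.07 with upper-quartile scaling; -0.54 to 0.27 with a library left out), the nuclear list's median (-0.41 to 0.04), polg-1 (-0.79 to 0.09), the ND1 share (-1.07 to 0.475) and the COX3 share (-0.57 with COX1 out of the sum; -0.17 to 0.889 with a library left out); the cause was not tested. The order of the mRNA genes was the same with reference exon lengths and with overlaps removed. The rRNA genes had no value in fits that leave out rRNA. The tRNA genes had 31 counts in all and ND4L 24 to 60 a library, the fewest of the mRNA genes.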
